A study of Mus musculus with 6 samples.

Results

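RNA levels of 27 genes of cholesterol and fatty acid synthesis were compared between mouse macrophages given IL-4 with CGRP and macrophages given IL-4 alone. The genes were listed by name, for the SREBP factors and their regulator, the sterol and fatty acid enzymes and a sterol transport protein, and each name matched 1 of the 57180 genes in the table. All 27 were among the 13260 genes with enough counts to test.

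Cells make cholesterol from acetyl-CoA through mevalonate and squalene, and fatty acids from the same precursor through malonyl-CoA. SREBP2 mainly drives the sterol enzymes and SREBP1 mainly the fatty acid enzymes. Both are held in the endoplasmic reticulum with SCAP and INSIG proteins while sterols are plentiful, and are cut and released to the nucleus when sterols run low. Macrophages also take up cholesterol with engulfed cells and lipoproteins, store it as esters and export it under the control of liver X receptors.

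All cultures were bone marrow-derived macrophages of WT mice aged 6 to 8 weeks, grown for 7 days with M-CSF at 20 ng/mL. The first group received IL-4, a cytokine of alternative activation, together with CGRP, a neuropeptide of sensory nerves, for 24 h. The second received IL-4 at 20 ng/mL for 24 h. Each group had 3 libraries. The CGRP concentration is ambiguous in the labels and is not given here. No culture without IL-4 was sequenced, and nothing says whether replicates came from separate animals or cultures, so the p-values reflect only how these libraries vary, which may be technical.

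Totals were 21768588 to 23869303 counts in the IL-4+CGRP libraries and 20088895 to 24060444 in the IL-4 libraries. On the first principal component of all tested genes (37.6% of variance), IL-4+CGRP replicate 2 lay at -0.17, against 21.98 and 27.05 for the other IL-4+CGRP libraries and -25.97 to -11.22 for the IL-4 libraries, so values without it are given where it decides a result. All 7 macrophage markers were detected, and they summed to 13800 to 14100 CPM (counts scaled to a fixed library total) in IL-4+CGRP and 13600 to 13800 CPM in IL-4 libraries. Among them only Itgam was called, 1.33-fold higher in IL-4+CGRP (edgeR adjusted p = 0.0012). Adgre1 averaged 2101 CPM in IL-4+CGRP and 2264 CPM in IL-4, and Cd68 2058 CPM in IL-4+CGRP and 2201 CPM in IL-4. Fcgr1 was also lower, at a log2 fold change (IL-4+CGRP over IL-4) of -0.033. Csf1r (0.090), Mertk (0.11) and Lyz2 (0.067) were higher. The 4 adipocyte markers, of a cell type rich in these enzymes, held at most 0.0825 CPM in any IL-4+CGRP library and 0.0506 CPM in any IL-4 library, with Plin1 and Lep at 0 counts in all 6 libraries. Fibroblast markers summed to 46.5 to 51.0 CPM in IL-4+CGRP libraries, against 40.6 to 44.9 CPM in IL-4 libraries, with 0 of 5 called. Pdgfrb was lower in IL-4+CGRP (log2 fold change -0.29) and the other fibroblast markers were higher. Endothelial markers summed to 144 to 164 CPM in IL-4+CGRP, against 105 to 122 CPM in IL-4 libraries, with Pecam1 and Kdr called higher by edgeR. Pecam1 averaged 103 CPM in IL-4+CGRP and 71.2 CPM in IL-4, and Kdr 49.1 and 40.05 CPM in that order. Cdh5, at 1.57 CPM in IL-4+CGRP and 1.09 CPM in IL-4, was uncalled, and its libraries overlapped. DESeq2 called 1 of these 3 genes and limma-voom 2. Dendritic cell markers summed to 2.07 to 2.71 CPM in IL-4+CGRP, against 3.09 to 4.55 CPM in IL-4 libraries, with Siglech called lower. Siglech averaged 0.638 CPM in IL-4+CGRP and 1.98 CPM in IL-4, at 9 to 60 counts a library. Flt3 (log2 fold change 0.16) and Zbtb46 (-0.10) were uncalled, and Xcr1 was too low to test. B cell markers summed to 25.3 to 28 CPM in IL-4+CGRP and 27.3 to 29.2 CPM in IL-4 libraries. Neutrophil and precursor markers summed to 9.37 to 13 CPM in IL-4+CGRP and 11.4 to 15 CPM in IL-4 libraries. T and NK cell, mast cell and erythroid markers each summed to at most 4.13 CPM in IL-4+CGRP and 4.6 CPM in IL-4 libraries. None of these markers was called, with Mpo lower in IL-4+CGRP (log2 fold change -0.42, edgeR unadjusted p = 0.019). The part of these cell types in the results was not tested. In bulk RNA, fewer cells of a type cannot be told apart from less RNA per cell.

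RefSeq promoters (build GRCm38.p6, 250 bases before to 50 after a start) were matched for 20 of the 27 genes, at 25 starts. The stretch before the start is shown for a regulator, a sterol enzyme and a fatty acid enzyme, chosen as the gene with the smallest p-value among the 27, the only gene with the sterol regulatory element letters searched, and fatty acid synthase. Capitals mark matches on either strand to TCACNCCAC (core of a sterol regulatory element, where SREBPs bind), CCAAT (bound by NF-Y) and GGGCGG (bound by Sp1). Each sequence is the 150 bases before the start, 5′ to 3′ on the gene's strand.
Srebf2, chr15:82147119-82147268, plus strand: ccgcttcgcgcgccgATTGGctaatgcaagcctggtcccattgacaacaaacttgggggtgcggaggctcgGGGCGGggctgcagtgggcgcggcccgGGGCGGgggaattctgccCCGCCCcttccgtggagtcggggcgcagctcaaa
Hmgcs1, chr13:119690201-119690350, plus strand: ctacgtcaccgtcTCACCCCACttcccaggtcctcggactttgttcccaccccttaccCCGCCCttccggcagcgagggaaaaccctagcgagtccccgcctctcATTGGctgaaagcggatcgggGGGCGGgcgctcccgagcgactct
Fasn, chr11:120824548-120824697, minus strand: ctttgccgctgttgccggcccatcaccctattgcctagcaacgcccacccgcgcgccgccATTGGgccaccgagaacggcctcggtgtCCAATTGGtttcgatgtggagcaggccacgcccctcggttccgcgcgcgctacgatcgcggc
The sterol regulatory element core began 137 bases before the Hmgcs1 start, in 1 of the 25 promoters, against 1.24% of 32851 promoters in the table. CCAAT stood in 18 of the 25 (72%, against 37.4% of all promoters), and GGGCGG also in 18 (72%, against 35.7%). In Fasn, a pair of CCAAT matches on opposite strands overlapped each other, and no match overlapped another motif. A match is a description of letters, not of binding.

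No gene of the pathway list was called changed. None of the 27 genes passed the edgeR quasi-likelihood test after Benjamini-Hochberg adjustment over all tested genes (0 higher and 0 lower), where 2.32% of tested genes were called higher, 1.54% lower and 3.85% in either direction. DESeq2 and limma-voom also called 0. At an unadjusted p under 0.05 there were 3 of the 27, Srebf2 and Fads1 with higher and Scd2 with lower values in IL-4+CGRP, against 15.8% of all tested genes. The libraries of the 2 groups did not overlap for 5 of the 27, against 21% of all tested genes, and these were Srebf2, Sqle, Nsdhl and Sc5d on the higher side and Scd2 on the lower. Both shares among the 27 are near those of all genes.

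The log2 fold changes of the 27 (IL-4+CGRP over IL-4) ran from -0.20 in Elovl6 to 0.21 in Mvd. Their median was 0.036, against -0.0042 over all tested genes, and 19 of 27 (70.4%) were above 0, against 49.2% of all tested genes. The median size of the change, whatever its direction, was 0.067 for the 27 and 0.11 for all tested genes. By step, the median was 0.067 for the 3 regulators, 0.018 for 6 enzymes of the mevalonate arm, 0.032 for 9 of the squalene and sterol ring arm and 0.041 for 8 of the fatty acid arm.

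The 95% intervals were taken gene by gene from the edgeR fit, and the bounds below hold for that fit only. SEs by DESeq2 were larger, at 0.35 against 0.23 in Fads2, 0.31 against 0.23 in Scd1 and 0.29 against 0.21 in Elovl6 (log2 scale). For 26 of 27 genes the interval lay within 1.5-fold in both directions, and for 14 within 1.25-fold. Elovl6 was the exception to the wider bound, with an interval that reached 1.57-fold lower in IL-4+CGRP. The highest upper bound was 1.48-fold, in Fads2. Both are low-count genes, with 44 to 59 counts a library for Elovl6 and 29 to 39 for Fads2, so their intervals are wide.

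**Figure D1:**
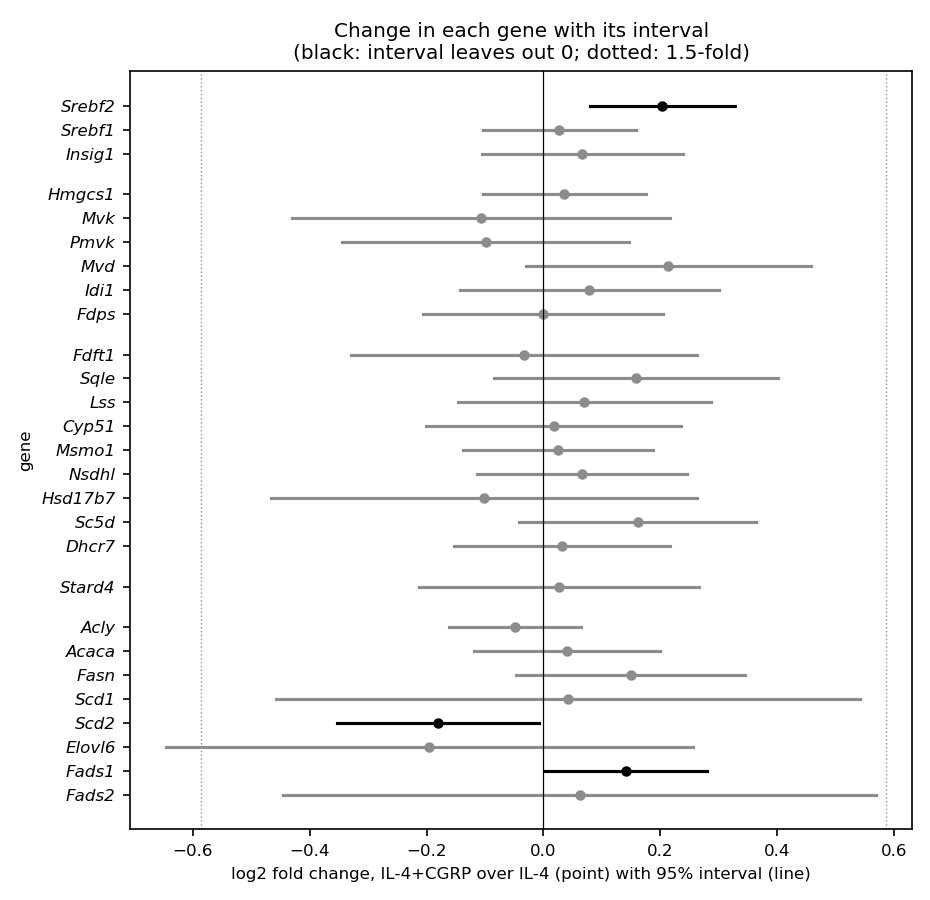
Log2 fold change (IL-4+CGRP over IL-4) of the 27 genes on the x axis, with the 95% interval as a line, genes down the y axis by step. The intervals of Srebf2, Fads1 and Scd2 (black) leave out 0, and only that of Elovl6 crosses a dotted line at 1.5-fold.

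Among the regulators, Srebf2, which encodes SREBP2, had 125.6, 116 and 127 CPM in IL-4+CGRP replicates 1 to 3, against 104, 106 and 110.4 CPM in IL-4 replicates 1 to 3. Every IL-4+CGRP library stood above every IL-4 library, and replicate 2 was the lowest of its group. The means were 123 ± 6.05 CPM in IL-4+CGRP and 107 ± 3.20 CPM in IL-4 (SD, n = 3 each), 1.15-fold with a 95% interval of 1.06 to 1.25. The log2 fold change of 0.20 ± 0.057 (SE) had an unadjusted p = 0.0040 and an edgeR adjusted p = 0.082, above the threshold of 0.05. Without IL-4+CGRP replicate 2, Srebf2 passed (edgeR adjusted p = 0.0032), at 0.24 ± 0.050 on the log2 scale (SE). It was the only 1 of the 27 to pass in that fit, where 13.8% of all tested genes did. Each of the other leave-one-out fits left Srebf2 above the threshold, at an edgeR adjusted p of 0.175 to 0.31. Srebf2 also passed with no count filter (edgeR adjusted p = 0.029), where 1018 of 23776 genes were called. Its log2 fold change there was 0.20 ± 0.062 (SE). Over all 15 alternatives the log2 fold change kept its sign, from 0.17 to 0.24, with adjusted p from 0.0032 to 0.31.

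**Figure D2:**
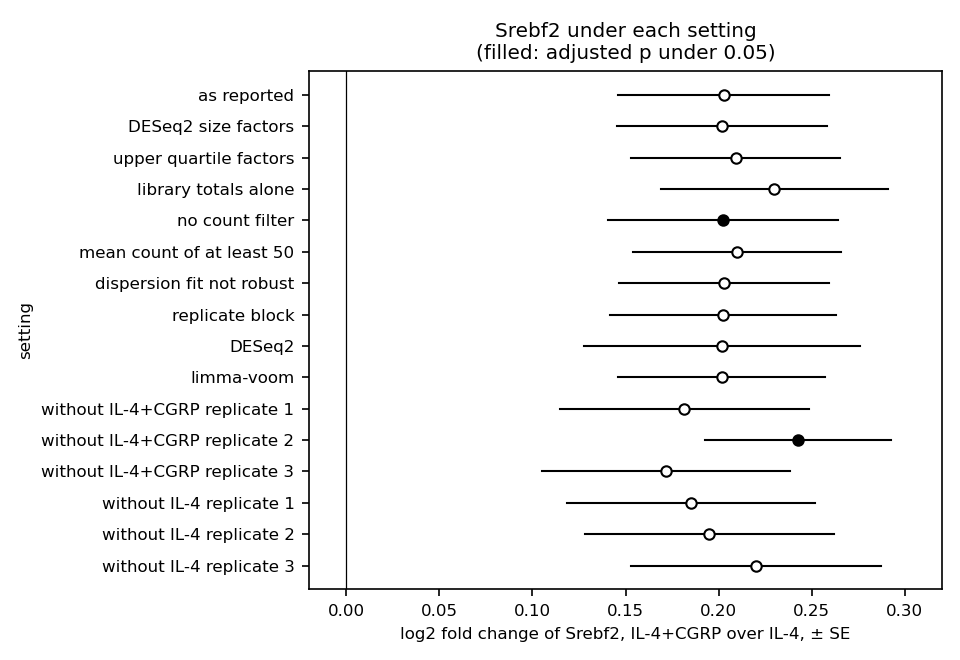
Log2 fold change of Srebf2 (IL-4+CGRP over IL-4) on the x axis with its SE as a line, under each setting down the y axis; filled points had an adjusted p under 0.05. The value lay between 0.17 and 0.24 throughout and passed the threshold without IL-4+CGRP replicate 2 and with no count filter.

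Srebf1 encodes SREBP1, and gene counts do not separate its isoforms. It had 70.4, 72.0 and 74.2 CPM in IL-4+CGRP libraries, inside the range of 66.1, 71.4 and 75.1 CPM in IL-4 libraries (log2 fold change 0.027 ± 0.060, SE; edgeR adjusted p = 0.87). Insig1, which holds SCAP and the SREBPs in the endoplasmic reticulum and is itself a target of SREBPs, had 27.4, 26.8 and 24.96 CPM in IL-4+CGRP libraries, against 23.3, 26.7 and 25.6 CPM in IL-4 libraries. These groups overlapped (log2 fold change 0.066 ± 0.078, SE; edgeR adjusted p = 0.73). The Srebf1 interval ran from 0.93-fold to 1.12-fold, and that of Insig1 from 0.93-fold to 1.18-fold.

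The mevalonate arm turns acetyl units into farnesyl diphosphate. Hmgcs1, the cytosolic HMG-CoA synthase, measured 44.6, 41.2 and 41.9 CPM in IL-4+CGRP and 39.4, 42.7 and 42.5 CPM in IL-4 libraries, which overlapped (log2 fold change 0.036 ± 0.064, SE; edgeR adjusted p = 0.83). Mvd, the mevalonate diphosphate decarboxylase, had the largest positive log2 fold change of the 27, at 0.21 ± 0.11 (SE). Its libraries still overlapped, at 9.70, 12.1 and 10.4 CPM in IL-4+CGRP and 9.87, 9.01 and 8.88 CPM in IL-4 (edgeR adjusted p = 0.39). IL-4+CGRP replicate 2 was the highest of the 6 for this gene, whereas for Srebf2 it was the lowest of its group. Without that library the log2 fold change of Mvd was 0.12 (edgeR adjusted p = 0.55), below those of Srebf2, Fasn, Sqle, Scd1, Fads1 and Sc5d.

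The kinases and the last enzymes of that arm lay close together between groups. Mvk, mevalonate kinase, had 9.90 ± 2.06 CPM in IL-4+CGRP and 10.6 ± 1.00 CPM in IL-4 (SD, n = 3 each), and its IL-4+CGRP libraries spread widely, at 10.2, 11.8 and 7.70 CPM. Pmvk, phosphomevalonate kinase, averaged 8.17 ± 0.770 CPM in IL-4+CGRP and 8.75 ± 0.535 CPM in IL-4. Idi1, isopentenyl diphosphate isomerase, averaged 9.58 ± 0.318 CPM in IL-4+CGRP and 9.07 ± 0.608 CPM in IL-4. Fdps, farnesyl diphosphate synthase, averaged 14.5 ± 0.749 CPM in IL-4+CGRP and 14.5 ± 0.998 CPM in IL-4, the smallest difference of the 27. Adjusted p-values of these 4 genes ran from 0.72 to 0.998 by edgeR.

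Farnesyl diphosphate is joined to squalene, oxidised and closed into the sterol ring. Fdft1, squalene synthase, averaged 7.27 ± 0.953 CPM in IL-4+CGRP and 7.45 ± 0.868 CPM in IL-4 (SD, n = 3 each; edgeR adjusted p = 0.93). Sqle, squalene epoxidase and a rate-limiting step of sterol synthesis, had 8.34, 7.62 and 7.39 CPM in IL-4+CGRP and 7.24, 6.57 and 7.13 CPM in IL-4 libraries. The groups did not overlap, but the gap between them was small against the spread within each, and the log2 fold change of 0.16 ± 0.11 (SE) had an edgeR adjusted p = 0.54. Lss, lanosterol synthase, averaged 17.9 ± 2.15 CPM in IL-4+CGRP and 17.02 ± 0.377 CPM in IL-4 (edgeR adjusted p = 0.78), with IL-4+CGRP libraries at 15.7, 20.0 and 18.0 CPM on both sides of the IL-4 values.

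The remaining enzymes trim and reduce lanosterol to cholesterol. Sc5d, sterol C5-desaturase, had 12.5, 12.8 and 12.6 CPM in IL-4+CGRP and 10.7, 12.01 and 11.2 CPM in IL-4 libraries, groups that did not overlap (log2 fold change 0.16 ± 0.092, SE; edgeR adjusted p = 0.44). Nsdhl, a sterol dehydrogenase of the demethylation steps, also did not overlap, at 16.4, 16.2 and 15.9 CPM in IL-4+CGRP, against 15.5, 15.1 and 15.8 CPM in IL-4. Its log2 fold change was only 0.066 ± 0.082 (SE), with an edgeR adjusted p = 0.75. Dhcr7, which makes cholesterol from its immediate precursor, averaged 36.7 ± 1.09 CPM in IL-4+CGRP and 35.9 ± 4.25 CPM in IL-4 (edgeR adjusted p = 0.89), and IL-4 replicate 1 was the lowest library at 31.1 CPM.

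Cyp51 (lanosterol demethylase), Msmo1 (methylsterol oxidase) and Hsd17b7 (a sterol ketoreductase) had overlapping groups as well. Cyp51 averaged 16.8 ± 1.43 CPM in IL-4+CGRP and 16.6 ± 1.49 CPM in IL-4, and Msmo1 26.7 ± 1.54 CPM in IL-4+CGRP and 26.3 ± 1.00 CPM in IL-4 (SD, n = 3 each). Hsd17b7 averaged 3.37 ± 0.310 CPM in IL-4+CGRP and 3.62 ± 0.482 CPM in IL-4. Stard4, which carries sterols between membranes, averaged 11.9 ± 1.07 CPM in IL-4+CGRP and 11.7 ± 1.18 CPM in IL-4. The edgeR adjusted p-values of these 4 genes ran from 0.81 to 0.95.

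**Figure D3:**
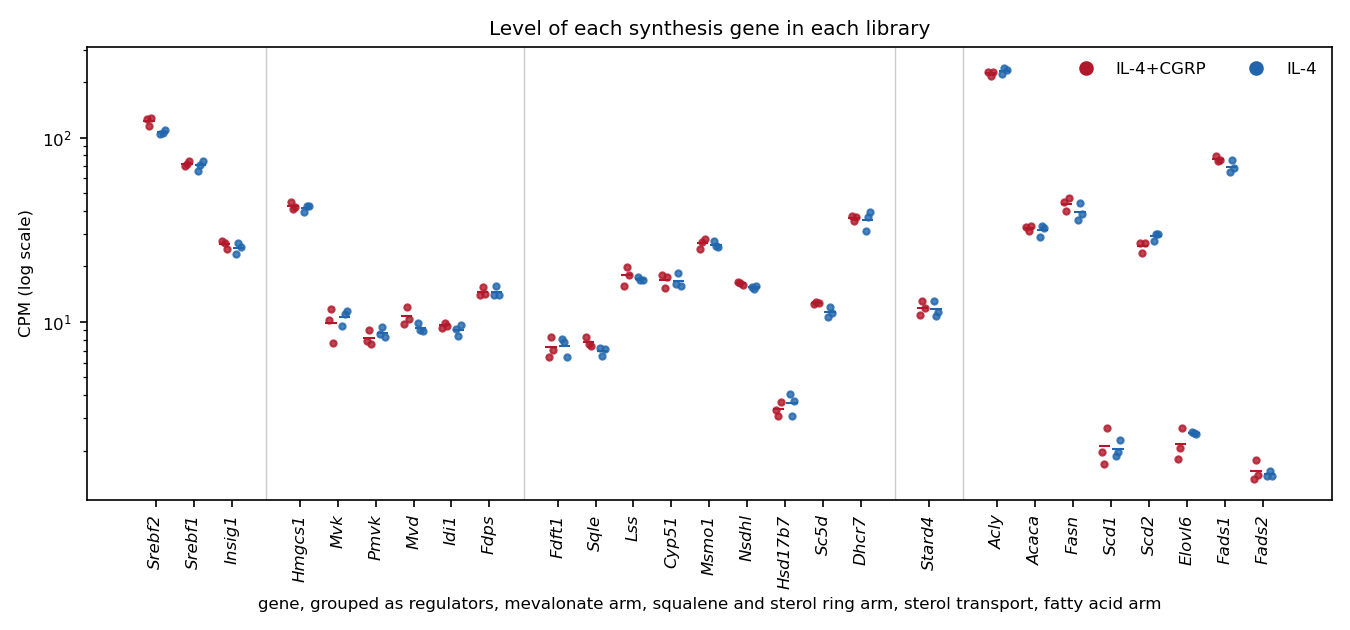
CPM of each gene on a log axis in each library, IL-4+CGRP (red, left of each pair) and IL-4 (blue, right), with short lines at the group means; genes are grouped by step along the x axis. Srebf2 and Scd2 show separated groups in opposite directions, and most other genes have groups that overlap, at levels from 214 to 239.6 CPM for Acly down to 1.403 to 1.79 CPM for Fads2.

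In the fatty acid arm, the 3 enzymes that build palmitate had overlapping groups. Acly, ATP citrate lyase, which supplies cytosolic acetyl-CoA to both pathways, had 227, 214 and 228 CPM in IL-4+CGRP and 221, 239.6 and 231.5 CPM in IL-4 libraries. With the smallest SE of the 27, its log2 fold change of -0.048 ± 0.051 had an interval from 0.89-fold to 1.04-fold (edgeR adjusted p = 0.70). Acaca, acetyl-CoA carboxylase, averaged 32.3 ± 1.07 CPM in IL-4+CGRP and 31.4 ± 2.24 CPM in IL-4 (SD, n = 3 each; edgeR adjusted p = 0.83). Fasn, fatty acid synthase, had 44.5, 39.8 and 47.1 CPM in IL-4+CGRP and 35.6, 44.3 and 38.6 CPM in IL-4 libraries, with IL-4 replicate 2 inside the IL-4+CGRP range. Its log2 fold change was 0.15 ± 0.089 (SE; edgeR adjusted p = 0.47), and single libraries moved it in both directions. It was lower, at 0.088, when IL-4+CGRP replicate 3 was left out (adjusted p = 0.85) and at 0.080 when IL-4 replicate 1 was (0.82). It was higher, at 0.21, when IL-4+CGRP replicate 2 was left out (0.096) and at 0.24 when IL-4 replicate 2 was (0.30).

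The desaturases held the pair with the smallest p-values after Srebf2, in opposite directions. Scd2, a stearoyl-CoA desaturase that makes monounsaturated fatty acids, had 26.9, 23.6 and 26.7 CPM in IL-4+CGRP libraries, all below the 27.3, 30.2 and 30.0 CPM of IL-4 libraries. Its log2 fold change was -0.18 ± 0.079 (SE), with an unadjusted p = 0.042 and an edgeR adjusted p = 0.30. Fads1, a desaturase of polyunsaturated fatty acids, had 79.4, 74.6 and 75.8 CPM in IL-4+CGRP and 65.0, 75.3 and 68.1 CPM in IL-4 libraries, where IL-4 replicate 2 overlapped the other group. Its log2 fold change was 0.14 ± 0.063 (SE), with an unadjusted p = 0.047 and an edgeR adjusted p = 0.31.

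Scd1, Elovl6 and Fads2 were the lowest of the 27. Scd1, the paralog of Scd2, averaged 2.11 ± 0.493 CPM in IL-4+CGRP and 2.05 ± 0.220 CPM in IL-4. How reads shared between these paralogs were counted is not given, and the counts of both were whole numbers in all 6 libraries. Elovl6, an elongase of saturated fatty acids, averaged 2.18 ± 0.432 CPM in IL-4+CGRP and 2.49 ± 0.0351 CPM in IL-4, with the lowest log2 fold change of the 27 (-0.20 ± 0.21, SE; edgeR adjusted p = 0.70). The Elovl6 value was -0.083 without IL-4+CGRP replicate 1, where Scd2 was lowest at -0.22, and -0.37 without IL-4+CGRP replicate 3. Fads2, another desaturase of polyunsaturated fatty acids, averaged 1.56 ± 0.204 CPM in IL-4+CGRP and 1.49 ± 0.0493 CPM in IL-4. At 29 to 59 counts in each library, small changes in these 3 genes were not detectable.

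Levels were set side by side between genes as CPM per kilobase of the deposited gene length. Acly was the highest, at 50.4 CPM per kilobase in IL-4+CGRP and 52.2 in IL-4, followed by Srebf2 (24.2 and 21.1 in that order of groups), Dhcr7 (22.2 and 21.7) and Fads1 (22.1 and 20.1). Srebf2 thus stood above Srebf1, at 16.8 CPM per kilobase in IL-4+CGRP and 16.5 in IL-4. The lowest were Elovl6 (0.835 CPM per kilobase in IL-4+CGRP and 0.955 in IL-4), Fads2 (0.495 and 0.474) and Scd1 (0.437 and 0.423), while Scd2 stood at 4.72 and 5.35. In this order, 7 of 26 neighbouring pairs had ranges over the 6 libraries that did not overlap, among them Acly above Srebf2 and Fads1 above Srebf1. Ranges of the other neighbours overlapped, and differences between genes were not tested.

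Within groups, the library with the highest or lowest value varied from gene to gene. IL-4 replicate 1 held the lowest value of the 6 libraries for 9 of the 27 genes, against 18.8% of all tested genes, and the median of the 3 regulators there was 0.14 below their mean over the libraries (log2 CPM). IL-4+CGRP replicate 2 was the highest library for 7 and the lowest for 5 of the 27, against 17.2% and 20.6% of all tested genes. In it the median deviation was 0.095 for the mevalonate arm and -0.070 for the fatty acid arm. In the squalene and ring arm the 3 IL-4+CGRP libraries had median deviations of 0.047, 0.040 and 0.047, and the IL-4 libraries -0.025, -0.028 and -0.050. The medians of the 3 regulators were also apart, at 0.019 to 0.088 in IL-4+CGRP and -0.14 to -0.0021 in IL-4 libraries. Of these 3 genes, only Srebf2 had libraries that did not overlap between groups. In the squalene and ring arm, libraries stood apart for Sqle, Nsdhl and Sc5d, 3 of its 9 genes (share over the whole tested set 21%). By edgeR, 0 of the 9 had an unadjusted p under 0.05. Log2 fold changes were above 0 for 7 of the 9 and below 0 for Fdft1 (-0.033) and Hsd17b7 (-0.10). Medians of the mevalonate and fatty acid arms overlapped between groups. Over all tested genes the median deviations were 0.001 to 0.0064 across the libraries. How often the medians of other gene sets of these sizes lie apart was not tested.

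**Figure D4:**
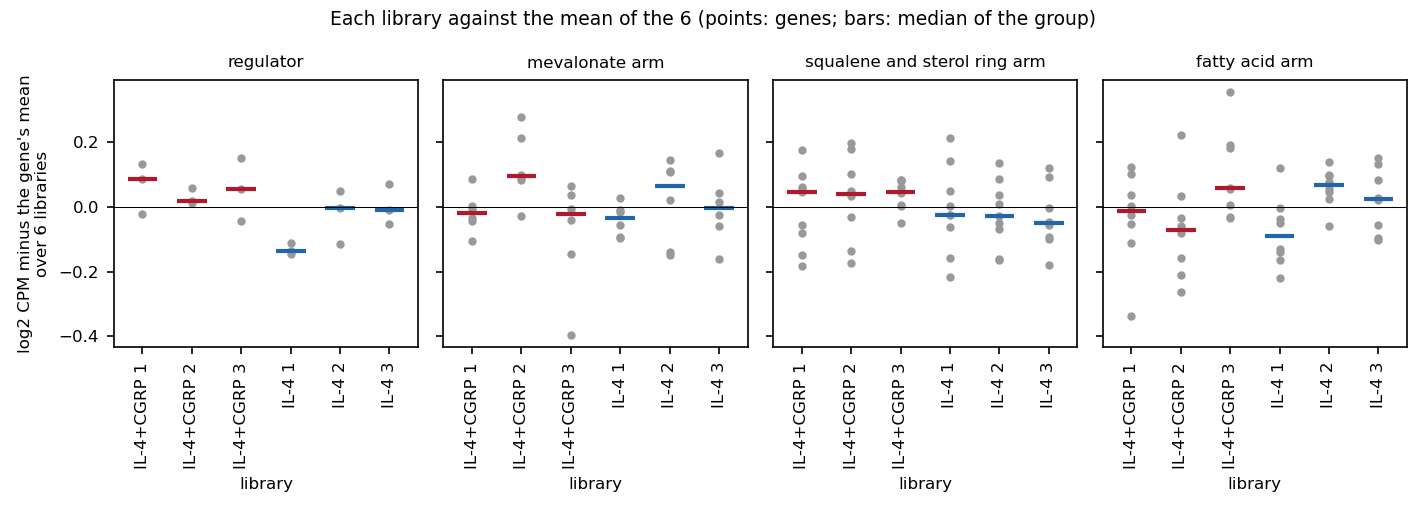
Log2 CPM of each gene minus its mean over the 6 libraries (grey points), with the median of each group of genes as a bar, for the 3 IL-4+CGRP (red) and 3 IL-4 (blue) libraries. Bars of the squalene and sterol ring arm lie at 0.040 to 0.047 in IL-4+CGRP and -0.050 to -0.025 in IL-4 libraries, without overlap. Of the 9 genes of that arm, 3 had separate groups of libraries and 0 had an unadjusted p under 0.05 by edgeR. Bars of the regulators also lie apart, and those of the mevalonate and fatty acid arms overlap.

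Other genes of the pathway were read from lists chosen by function. Over all tested genes, edgeR called 3.85% in either direction, and 15.8% had an unadjusted p under 0.05. Of 10 genes that process or degrade SREBP complexes, 0 passed by edgeR, DESeq2 or limma-voom, with 1 at an unadjusted p under 0.05 (Rnf145, a sterol-responsive ubiquitin ligase, log2 fold change 0.16). Scap, the SREBP escort, measured 82.9 ± 4.24 CPM in IL-4+CGRP and 80.7 ± 0.677 CPM in IL-4 (SD, n = 3 each). Of 12 tested genes among 13 of further sterol and isoprenoid synthesis, 0 passed by the 3 tools, with 0 at an unadjusted p under 0.05. Of 27 tested among 32 of further fatty acid and lipid synthesis, 0 passed by the 3 tools, with 2 at an unadjusted p under 0.05, the elongase gene Elovl5 (log2 fold change -0.24) and the lipid droplet gene Plin2 (-0.12).

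Genes that release, sense or export sterols had 2 of 16 tested members called lower and 0 called higher by edgeR, and 2 called by each of DESeq2 and limma-voom, where 1.54% of all tested genes were called lower and 3.85% in either direction by edgeR. At an unadjusted p under 0.05 there were 5 of 16, against 15.8% of all tested genes. Lipa, the lysosomal acid lipase that frees cholesterol from engulfed esters, fell to 761, 684 and 762 CPM in IL-4+CGRP libraries, against 979.8, 994 and 993 CPM in IL-4 libraries. That is 1.34-fold lower (log2 fold change -0.43 ± 0.048, SE; edgeR adjusted p = 4.3e-04), and it passed in every fit that left out 1 library (adjusted p 2.2e-06 to 0.010). Nr1h3, the liver X receptor alpha, which senses oxysterols and is known to drive Srebf1, fell to 92.7, 110.4 and 92.1 CPM in IL-4+CGRP libraries, against 129.9, 119 and 122 CPM in IL-4 libraries, 1.26-fold lower (log2 fold change -0.33 ± 0.074, SE; edgeR adjusted p = 0.028). The Nr1h3 call ended without any 1 of IL-4+CGRP replicates 1 and 3 and IL-4 replicates 1, 2 and 3 (adjusted p 0.10 to 0.15), and also when the dispersion was fitted without robust weighting (0.054), and held without IL-4+CGRP replicate 2 (3.7e-05). The cholesterol exporters Abca1 (log2 fold change 0.19 ± 0.059, SE; adjusted p = 0.12) and Abcg1 (-0.16 ± 0.045, SE; adjusted p = 0.084) did not pass, though the libraries of each were separated, in opposite directions. Lrp1, an endocytic receptor for lipoproteins, had separated libraries too, with lower values in IL-4+CGRP (log2 fold change -0.24 ± 0.074, SE; edgeR adjusted p = 0.15). The groups of libraries did not overlap for 21% of all tested genes. Whether this list of sterol genes differs from the synthesis genes was not tested.

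**Figure D5:**
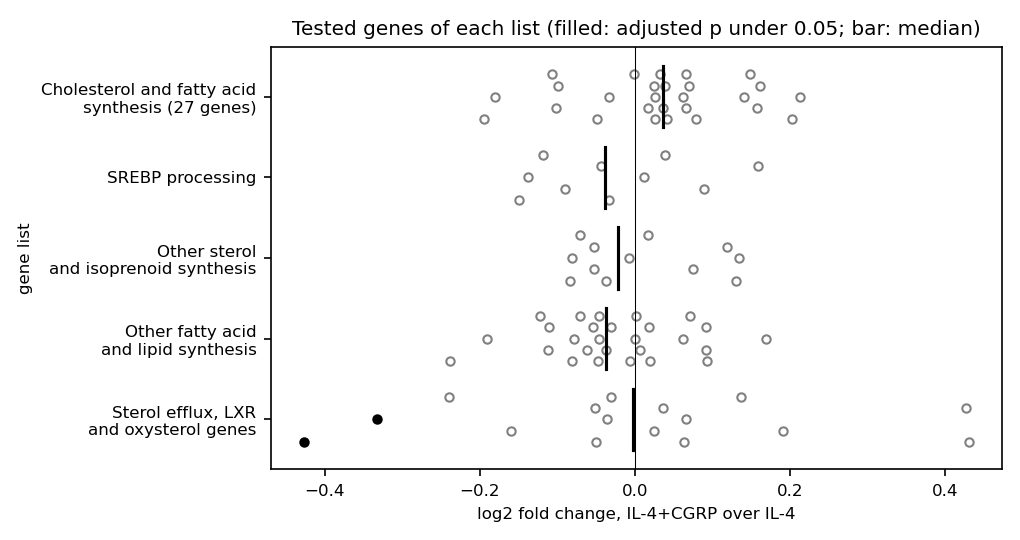
Log2 fold change (IL-4+CGRP over IL-4) of every tested gene on the x axis, for the 27 synthesis genes and the 4 other lists, with the median as a bar; filled points passed the adjusted threshold. Only Lipa and Nr1h3, at -0.43 and -0.33, are filled, and the medians lie between -0.039 and 0.036.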

How the data were processed

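The table the authors deposited holds estimated counts of 57180 genes in 6 libraries, raw rather than normalised, beside gene lengths and group means; no test used the means. The tools were fastp, HISAT2 and StringTie with build GRCm39, per the submitters' processing notes. Versions, annotation, counting step and its use of strand are not given here. Reads of antisense or overlapping partners may therefore be mixed. Between 23.3% and 26.6% of nonzero values per library were not whole (tolerance 1e-06), among them values of 6 of the 27 genes, and all were rounded before testing. Per the labels' protocols, libraries came from a stranded mRNA kit. There were 0 unassigned columns.

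Genes were filtered with filterByExpr (13260 kept, 99.91% of counts) and scaled by TMM (0.985 to 1.016). Groups were compared in edgeR 4.0.16 (R 4.3.3) with its robust quasi-likelihood test, two-sided, and p-values were adjusted over every tested gene (Benjamini-Hochberg, threshold 0.05). The SE was taken as fold change (log2) over the root of F, and 95% intervals use the fit's t quantiles. The test was tried on simulated data with known changes. Library deviations use log2 CPM with a prior count of 2. Alternatives were other scalings and count filters, DESeq2 1.42.0, limma-voom 3.58.1, a dispersion fit that was not robust, a replicate block and leaving out each library. All 27 genes are named, with called genes of the other lists (at most 4 a list); other genes with an unadjusted p under 0.05, Scap and the cell type markers named singly were chosen after their values were seen. The members and lists were chosen with earlier results of these data known.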

Additional observations from a re-analysis of the deposited data

How the results depend on the processing

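The count of all called genes, 511 as reported, was 429 to 516 under the other scalings, a mean count of at least 50, a dispersion fit that was not robust, DESeq2 and limma-voom. It was 1018 with no count filter and 222 to 1865 when each library was left out in turn, the highest without IL-4+CGRP replicate 2. Of the calls 60.1% were higher, 71.2% with library totals alone and 49.1% without IL-4+CGRP replicate 2 (915 higher and 950 lower). Called synthesis genes numbered 0 under every alternative except no count filter (1, Srebf2) and the leave-one-out fits (0 to 1, again Srebf2, without IL-4+CGRP replicate 2). Their median log2 fold change stayed between 0.013 and 0.063.

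Signs were not all stable: in 29 of 403 gene and alternative pairs the sign turned, in 13 genes, none of them called in any fit. These were not only values near 0. Mvk, at -0.11 as reported, was 0.038 without IL-4+CGRP replicate 3, and Lss, at 0.070, was -0.017 without IL-4+CGRP replicate 2. Fdps, at -8e-04, was 0.0056 with upper quartile factors, 0.026 with library totals alone, 0.0062 with a mean count of at least 50 and 3e-04 with the replicate block. Over the leave-one-out fits, the log2 fold changes ran from -0.021 to 0.063 in Srebf1, -0.0054 to 0.059 in Hmgcs1, -0.25 to 0.038 in Mvk, -0.044 to 0.057 in Fdps, -0.14 to 0.044 in Fdft1, -0.017 to 0.15 in Lss, -0.036 to 0.092 in Cyp51, -0.016 to 0.065 in Msmo1, -0.059 to 0.097 in Dhcr7, -0.042 to 0.11 in Stard4, -0.017 to 0.077 in Acaca, -0.16 to 0.17 in Scd1 and -0.046 to 0.13 in Fads2. The cause was not tested.

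With the replicate number as a block, 262 genes were called and 0 of the 27, and the Nr1h3 call ended (adjusted p = 0.10). Deviations of same-numbered libraries from their group means correlated across genes at -0.19, -0.18 and 0.13. Those of differently numbered libraries correlated at -0.18 to 0.29. With 3 libraries in each group, these values cannot show whether same-numbered libraries shared an animal or culture.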
